A study of Mus musculus with 16 samples.

Results

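The genes described here are 10 that mark Kupffer cells, the resident macrophages of the liver, and macrophages in general: Clec4f, Vsig4, Timd4, Cd5l, Marco, Adgre1, Csf1r, C1qa, C1qb and C1qc. They were taken by symbol from the table of liver RNA, and all 10 were found among 18209 named genes. The study sequenced liver RNA of 16 mice aged 20 days, with 4 mice in each of 4 genotypes. All 16 mice carried the floxed Trsp alleles (Trsp fl/fl), and Trsp encodes the transfer RNA that carries selenocysteine, the amino acid built into selenoproteins. Control livers were Trsp fl/fl without Cre. Trsp knockout livers were Trsp fl/fl::AlbCre. Keap1 mutant livers were homozygous for the KEAP1 substitutions C226S and C613S on the Trsp fl/fl background. Compound mutant livers carried the same homozygous substitutions together with Trsp fl/fl::AlbCre. The albumin promoter drives Cre in hepatocytes, so macrophages keep Trsp in the knockout, whereas the Keap1 alleles are inherited and all cells carry them. KEAP1 is the sensor protein that holds the transcription factor NRF2 in check, and the study asked how its cysteines take part in NRF2 activation when selenoproteins are missing.

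Kupffer cells line the liver sinusoids, where they clear bacteria, aged red cells and dying cells from the blood. CLEC4F, VSIG4, TIMD4 and MARCO are receptors on their surface, CD5L is a protein they secrete, and the growth factor receptor CSF1R keeps macrophages alive. ADGRE1 is the F4/80 antigen of mouse macrophages, and C1QA, C1QB and C1QC are the chains of C1q, the first component of the classical complement pathway.

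The library labelled compound mutant replicate 1 stood apart. It held 28799 reads on Xist, against at most 50 in the other 15 libraries, and 2 reads on Y-linked genes, against at least 1830, although all mice are labelled male. Vsig4 is the X-linked gene of the set. Trsp itself has no row in the table. Recovered reads per library ranged from 11386708 to 19164130, and albumin, the defining transcript of hepatocytes, took from 4.86% to 10.7% of them. The 4.86% was again compound mutant replicate 1, and the next lowest library had 6.35%. Expression is given as normalized count, the reads of a gene divided by the size factor of its library, or as log2(normalized count + 4), the scale of the deposited values. Differences were tested with limma over the 15781 genes that reached a normalized count of 10 in 4 or more libraries, a filter that all 10 genes passed. Called genes are those that passed the study's thresholds, an adjusted p under 0.01 and a log2 fold change of more than 1 in size.

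Levels varied widely between mice of the same genotype. Compound mutant replicate 4 had the lowest level of the 16 livers for all 10 genes, with a mean deviation of -0.97 from their own means on the log2 scale. Keap1 mutant replicate 1 had the highest level for 9 of the 10, with a mean deviation of 0.94. Control replicate 3 was lowest among the controls for all 10, with a mean deviation of -0.69. Genotype accounted for between 2.65% (Clec4f) and 36.1% (Csf1r) of the sum of squares of a gene. Means of 4 livers vary less than single livers even where genotype has no effect, so these shares are no test. In bulk liver RNA, fewer macrophages and less RNA per macrophage cannot be told apart.

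**Figure D1:**
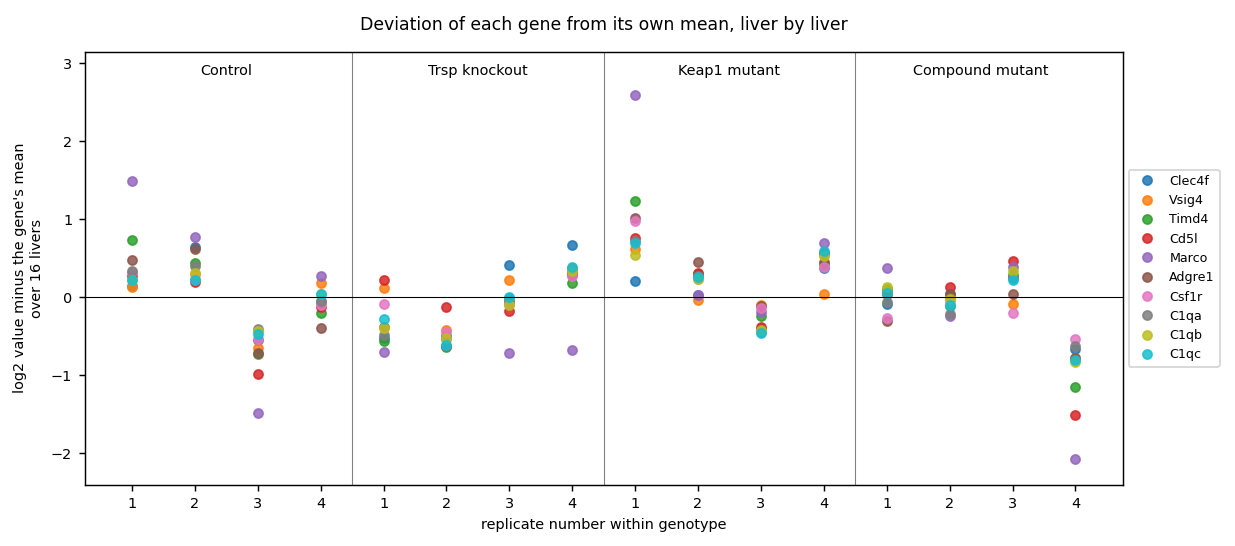
Deviation of each of the 10 genes from its own mean over 16 livers, in log2 units, with livers on the horizontal axis grouped by genotype. The 10 points lie from -2.07 to -0.53 in compound mutant replicate 4 and from 0.21 to 2.59 in Keap1 mutant replicate 1, and they fall on both sides of 0 in others, such as Trsp knockout replicate 4 (-0.68 to 0.67).

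Among the receptors known from Kupffer cells, Clec4f, a C-type lectin, differed least between genotypes. It lies on chromosome 6 at 83644542 to 83656187 (GRCm38, minus strand). Its normalized counts were 1849, 2617, 1143 and 1609 in the 4 control livers and 1163, 1192, 2239 and 2669 in the Trsp knockout livers. They were 1937, 1716, 1269 and 2186 in the Keap1 mutant and 1587, 1727, 1989 and 1057 in the compound mutant livers. The genotypes overlapped throughout, and the knockout livers separated into a lower and a higher pair. Genotype means on the log2 scale were between 10.60 ± 0.39 (SD, n = 4, compound mutant) and 10.77 ± 0.34 (SD, n = 4, Keap1 mutant).

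Marco, a scavenger receptor for bacteria and particles, varied most. It lies on chromosome 1 at 120474538 to 120505024 (GRCm38, minus strand). Its normalized counts were 1563, 943, 194 and 668 in control and 336, 378, 334 and 343 in Trsp knockout livers. They were 3331, 564, 482 and 896 in Keap1 mutant and 716, 466, 725 and 128 in compound mutant livers. The highest and lowest livers differed 26.0-fold, against 2.52-fold to 5.36-fold for the other 9 genes. The 4 Trsp knockout livers lay close together, with a log2 mean of 8.46 ± 0.08 (SD, n = 4), whereas the SD of the other genotypes was between 1.16 and 1.27. Whether the spread of Marco itself differed between genotypes was not tested.

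Timd4, a receptor for phosphatidylserine on dying cells, lies on chromosome 11 at 46810800 to 46844332 (GRCm38, plus strand) and had the lowest level of the 10 per length. Its normalized counts were 398, 323, 142 and 205 in control and 160, 151, 224 and 269 in Trsp knockout livers. They were 563, 292, 201 and 321 in Keap1 mutant and 255, 220, 290 and 105 in compound mutant livers. The groups overlapped, and the lowest liver held 105 reads of this gene, for which counting alone gives a coefficient of variation of 9.76%.

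Vsig4, the complement receptor that takes up particles coated with C3 fragments, lies on the X chromosome at 96247203 to 96293438 (GRCm38, minus strand). Its normalized counts ranged from 382 to 741 in control, 447 to 783 in Trsp knockout, 558 to 927 in Keap1 mutant and 349 to 632 in compound mutant livers. The 632 belonged to the library labelled compound mutant replicate 1, and the other 3 compound mutant libraries had 599, 563 and 349. Cd5l, a secreted protein of tissue macrophages, lies on chromosome 3 at 87357881 to 87371073 (GRCm38, plus strand). Its normalized counts were 2759, 2625, 1157 and 2090 in control and 2656, 2094, 2028 and 2866 in Trsp knockout livers. They were 3888, 2831, 1754 and 3392 in Keap1 mutant and 2363, 2501, 3147 and 797 in compound mutant livers. A single liver of the compound mutants was thus far below the other 3, which lay inside the range of the controls or above it.

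Of the genes shared by macrophages in general, Csf1r, the receptor for the growth factors CSF1 and IL-34, had the smallest spread within genotypes, an SD of 0.35 on the log2 scale. Its normalized counts were 2443, 2308, 1354 and 1835 in control and 1846, 1436, 1837 and 2375 in Trsp knockout livers. They were 3871, 2307, 1775 and 2560 in Keap1 mutant and 1621, 1902, 1701 and 1350 in compound mutant livers. The compound mutant livers lay below the Keap1 mutant livers except that the highest of them, 1902, exceeded the lowest Keap1 mutant, 1775. Adgre1, an adhesion receptor, lies on chromosome 17 at 57358691 to 57483527 (GRCm38, plus strand). Its normalized counts were 1054, 1166, 459 and 576 in control and 578, 488, 732 and 921 in Trsp knockout livers. They were 1530, 1033, 697 and 1036 in Keap1 mutant and 611, 782, 778 and 440 in compound mutant livers. The lowest Keap1 mutant again overlapped the compound mutants. The ratio of Csf1r to Adgre1 normalized counts moved 1.61-fold over the 16 livers, between 1.98 and 3.19.

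The 3 C1q genes lie next to each other on chromosome 4, within 18675 bases from 136880129 to 136898803 (GRCm38, minus strand), each with 3 exons in its principal transcript. C1qb had normalized counts of 1213, 1284, 770 and 1069 in control and 790, 721, 970 and 1311 in Trsp knockout livers. They were 1503, 1219, 774 and 1492 in Keap1 mutant and 1137, 1020, 1313 and 581 in compound mutant livers. C1qa ranged from 614 to 1566 and C1qc from 582 to 1644 over all 16 livers, with overlapping genotypes. The ratio of C1qa to C1qb stayed between 0.80 and 1.06, and that of C1qc to C1qb between 0.90 and 1.09. Over the same livers the ratio of Marco to Clec4f ran from 0.121 to 1.72, a 14.2-fold range against 1.31-fold and 1.21-fold for the C1q ratios. The ratios of Timd4 to Clec4f and of Cd5l to Clec4f moved 2.93-fold and 3.03-fold.

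**Figure D2:**
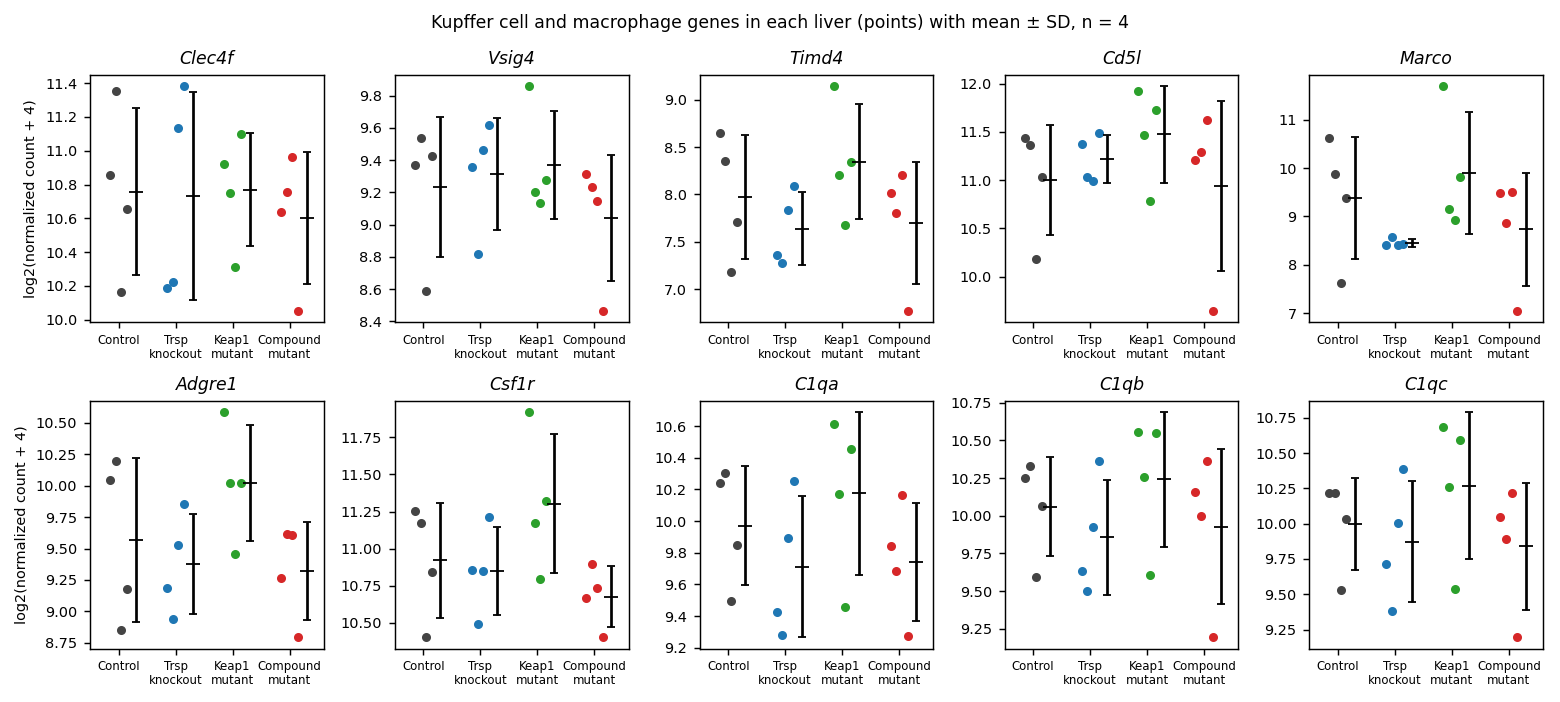
Level of each gene as log2(normalized count + 4) in each liver (points), with mean ± SD of the 4 livers of a genotype beside them; each panel has its own scale. The genotypes overlap for all 10 genes, and the Marco values of the Trsp knockout livers lie close together.

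Promoter sequence was at hand for 7 of the 10 genes (RefSeq, GRCm38.p6, 250 bases before to 50 after the start site). The promoters of C1qb and C1qc, the pair that tracked each other most closely, and of Marco and Clec4f, the pair that did so least, are shown 5′ to 3′ on the strand of the gene. Capitals mark GAGGAA, the core letters bound by the macrophage factor PU.1, and TCATGTG, letters bound by MITF and its relatives, or the reverse complement of either. The letters TCATGTG were chosen after Mitf had been seen to follow the set, as given further on. C1qb lies at chr4:136886151-136886450, C1qc at chr4:136892865-136893164, Marco at chr1:120504975-120505274 and Clec4f at chr6:83656067-83656366, all on the minus strand.
C1qb: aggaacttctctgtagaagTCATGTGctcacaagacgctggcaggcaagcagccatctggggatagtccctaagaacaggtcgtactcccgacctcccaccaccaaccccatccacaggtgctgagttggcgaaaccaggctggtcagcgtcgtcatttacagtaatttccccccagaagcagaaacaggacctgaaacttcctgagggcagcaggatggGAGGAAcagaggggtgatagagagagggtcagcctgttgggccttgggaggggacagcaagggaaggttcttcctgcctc
C1qc: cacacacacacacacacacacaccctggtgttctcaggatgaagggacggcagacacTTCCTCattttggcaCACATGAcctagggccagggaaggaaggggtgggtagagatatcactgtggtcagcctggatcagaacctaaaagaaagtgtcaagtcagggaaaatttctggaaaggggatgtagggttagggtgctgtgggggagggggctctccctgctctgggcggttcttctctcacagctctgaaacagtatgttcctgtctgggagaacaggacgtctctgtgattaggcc
Marco: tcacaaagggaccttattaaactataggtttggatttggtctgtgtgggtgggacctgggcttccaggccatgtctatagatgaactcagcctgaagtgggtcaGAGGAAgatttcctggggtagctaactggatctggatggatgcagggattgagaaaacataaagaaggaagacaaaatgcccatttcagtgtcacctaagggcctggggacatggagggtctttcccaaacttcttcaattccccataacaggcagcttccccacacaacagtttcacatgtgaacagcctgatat
Clec4f: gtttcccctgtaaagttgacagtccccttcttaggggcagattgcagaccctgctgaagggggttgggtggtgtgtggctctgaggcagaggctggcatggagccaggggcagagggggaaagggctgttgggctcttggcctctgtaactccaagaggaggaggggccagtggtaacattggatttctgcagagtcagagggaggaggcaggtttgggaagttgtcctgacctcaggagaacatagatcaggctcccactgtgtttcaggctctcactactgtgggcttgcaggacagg
GAGGAA on either strand was found in 5 of the 7 promoters (C1qb, C1qc, Cd5l, Marco and Vsig4), against 28.3% of 32817 promoters of the same length. TCATGTG on either strand was found in C1qb and C1qc, 2 of the 7, against 3.78% of all promoters. Only this exact spelling was searched and marked. A near match, such as the cacatgtg close to the end of the Marco window, was not counted. The letters of the motifs do not overlap in these windows. In C1qb the GAGGAA begins 30 bases before the start site (position -30) and the TCATGTG at position -231, and in C1qc the reverse complements begin at -193 and -178. A match gives the letters only, and binding was not measured.

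Levels of different genes were compared per kilobase of the principal transcript. Cd5l stood highest at 1196 ± 386 normalized counts per kb (SD, n = 16). C1qb (986 ± 260), C1qa (954 ± 283), C1qc (879 ± 252) and Clec4f (707 ± 207) followed. Csf1r (432 ± 133), Vsig4 (431 ± 102), Marco (392 ± 401) and Adgre1 (249 ± 92.7) were lower, and Timd4 was lowest at 118 ± 51.8. The ranges over the 16 livers overlapped between each pair of neighbours in this order. On the log2 scale the mean of the Keap1 mutant livers was the highest of the 4 genotypes for all 10 genes. The lowest log2 mean was that of the compound mutant for 6 and of the Trsp knockout for 4. Means of normalized counts differed in order for some genes, and Clec4f had 1777 in Keap1 mutant against 1816 in Trsp knockout livers. The lowest Cd5l mean was then that of control livers, 2158 against 2202 in compound mutant livers.

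With genotype means removed, the 10 genes varied together from mouse to mouse. Over their 45 pairs, Pearson's r across the 16 livers was between 0.56 and 0.99 with a median of 0.85, and Spearman's rho was between 0.47 and 0.99 with a median of 0.83. Without the 2 livers farthest from the median of 1 gene of the pair, r was between 0.30 and 0.98 with a median of 0.80. That gene was the one that comes first in the order given at the start, so extreme livers of the other gene could remain. These values are descriptions over livers that share library preparation and scaling. The highest r was that of C1qb and C1qc, 0.99, and the lowest that of Clec4f and Marco, 0.56. The latter became 0.30 without the 2 livers farthest from the median of Clec4f. Timd4 followed the mean of the other 9 genes most closely (r = 0.97), and Marco least (r = 0.82).

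**Figure D3:**
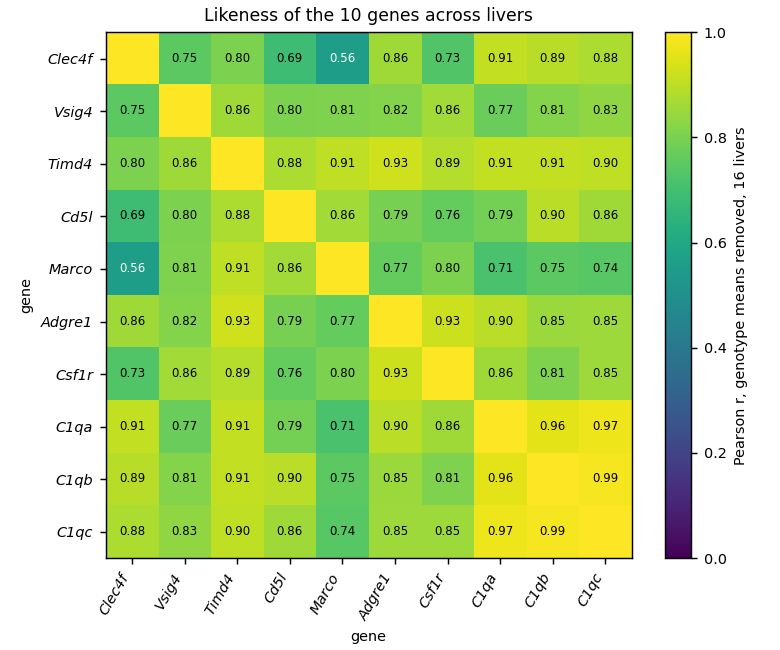
Pearson's r between each pair of the 10 genes over 16 livers after subtraction of genotype means, with the colour scale from 0 to 1. The C1q genes form the block of highest values, and the Clec4f and Marco pair is the lowest at 0.56.

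The first comparison asked what loss of hepatocyte selenoproteins does with KEAP1 intact. None of the 10 genes was called between Trsp knockout and control livers, where 0.215% of all genes tested were called. At an adjusted p under 0.05 the count was also 0, against 0.558% of all genes, and at an unadjusted p under 0.05 it was 0, against 11.0%. With limma voom on the recovered reads, 0 were called here and in the other comparisons, and here 0 had an unadjusted p under 0.05. No gene had groups that did not overlap, against 6.01% of all genes. The log2 fold change had a median of -0.16 over the 10 genes, with 8 lower and 2 higher in log2 mean. Over all genes the median was -0.01 and 52.3% were lower. Marco had the largest difference, -0.92 (95% confidence interval -2.34 to 0.49, limma adjusted p = 0.642). Without control replicate 3 the median was -0.32 with all 10 lower, and 1 gene was below an unadjusted p of 0.05, Marco at -1.51 (limma adjusted p = 0.369). Without Trsp knockout replicate 2 the median was -0.0064, and without replicate 4 of that genotype it was -0.33. For 7 of the 10 genes the interval, with all libraries, lay within 1 on either side of 0, so that a 2-fold difference was outside it. Csf1r, with an interval of -0.55 to 0.41, was the tightest of these.

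The second comparison asked the same in livers with the KEAP1 substitutions. The means of all 10 genes were lower in compound mutant than in Keap1 mutant livers, where 50.7% of all genes were lower. The median over the 10 was -0.48 on the log2 scale, beside -0.005 over all genes. None was called, against 0.171% of all genes, and none had an adjusted p under 0.05, against 0.798%. The genes vary together from mouse to mouse, so their 10 directions are not separate observations. The Csf1r difference was -0.63 on the log2 scale (standard error 0.23, 95% confidence interval -1.11 to -0.15, limma adjusted p = 0.230). Adgre1 had -0.70 (standard error 0.31, 95% confidence interval -1.35 to -0.04, limma adjusted p = 0.333). These 2 of 10 were below an unadjusted p of 0.05, against 13.6% of all genes, and limma voom gave the same count of 2. Groups overlapped for all 10, against 7.69% of genes without overlap. The largest difference was again that of Marco, -1.17 (95% confidence interval -2.58 to 0.25, limma adjusted p = 0.474), and Clec4f had the smallest, -0.17 (-0.80 to 0.47). Without compound mutant replicate 4 the median was -0.25, with 9 lower and 1 below an unadjusted p of 0.05. Without Keap1 mutant replicate 1 it was -0.33, with 10 lower and 0 below that p. Without compound mutant replicate 1, the library with Xist reads, it was -0.56, with 10 lower.

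The third comparison concerned the substitutions alone, with selenoproteins intact. The log2 means of all 10 genes were higher in Keap1 mutant than in control livers, where 51.0% of all genes were lower. Their log2 fold changes ran from 0.01 (Clec4f) to 0.52 (Marco) around a median of 0.32. This comparison and the second share the Keap1 mutant livers. None of the 10 was called (0.0127% of all genes), had an adjusted p under 0.05 (0.0887%), an unadjusted p under 0.05 (9.07%) or groups without overlap (6.23%). Without Keap1 mutant replicate 1 the median was 0.09 with 3 genes lower, and without control replicate 3 it was 0.08, again with 3 lower. Csf1r had the lowest adjusted p, at a log2 fold change of 0.38 (95% confidence interval -0.10 to 0.87, limma adjusted p = 0.653).

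The fourth comparison asked what the substitutions do in selenoprotein-deficient livers. The 10 genes stood near 0 between compound mutant and Trsp knockout livers, 6 lower and 4 higher in mean. Their log2 fold changes ran from -0.28 (Cd5l) to 0.27 (Marco) around a median of -0.04. None was called (0.570% of all genes), had an adjusted p under 0.05 (2.07%), an unadjusted p under 0.05 (17.6%) or groups without overlap (8.61%). The interval lay within 1 on either side of 0 for 8 of the 10, Marco (-1.14 to 1.69) and Cd5l (-1.08 to 0.52) being the exceptions. Without compound mutant replicate 4 the median was 0.17, with 2 lower.

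The difference between the knockout effects with and without the substitutions was tested as an interaction. Its median over the 10 genes was -0.31, from -0.76 (Cd5l) to -0.11 (C1qb), all 10 below 0, beside 49.8% of all genes. None was called (0.0570% of all genes), had an adjusted p under 0.05 (0.0951%) or an unadjusted p under 0.05 (10.8%). Csf1r had -0.56 (95% confidence interval -1.24 to 0.12, limma adjusted p = 0.534). The interval lay within 1 on either side of 0 for 2 of the 10 genes, so a 2-fold difference in effect was within the interval for the other 8. Without compound mutant replicate 4 the median was -0.05 with 6 below 0.

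**Figure D4:**
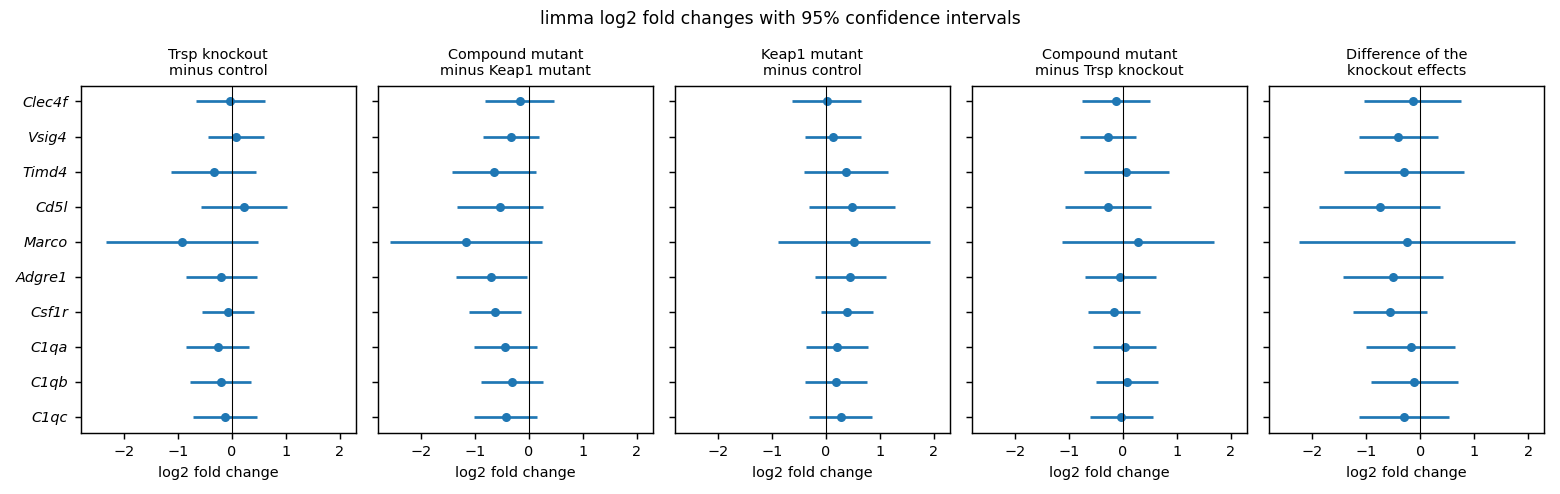
limma log2 fold change (points) and 95% confidence interval (lines) of each gene in the 4 comparisons and in the difference of knockout effects. The intervals cross 0 except for Adgre1 and Csf1r in compound mutant against Keap1 mutant livers, neither of which passed adjustment over all genes.

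The 8 genes outside the set that followed it most closely over the 16 livers, genotype means removed, were taken from 15757 genes. Mitf, a transcription factor of the MiT family, came first with r = 0.977 between normalized counts of 71.2 and 128. Cybb, the catalytic subunit of the phagocyte NADPH oxidase, had r = 0.971, and Cfp, properdin of the alternative complement pathway, 0.961. Myo9a, an unconventional myosin, had 0.969. Igsf6 (0.941), the lysosomal membrane protein gene Laptm5 (0.939), Treml4 (0.931) and Ctss (0.928), which encodes the lysosomal protease cathepsin S, completed the 8. None of these 8 had an adjusted p under 0.05 in any of the 5 tests with limma.

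Other cell type and pathway lists were set beside the 10 genes in the same way, again as a description over 16 livers that share their scaling. A list of 14 other Kupffer cell genes had r = 0.93 with the set, and 19 general macrophage and myeloid genes had r = 0.97. T and NK cell genes had 0.71, iron and heme recycling genes 0.64, monocyte genes 0.54, dividing cell genes 0.54, genes for uptake of dying cells and modified lipoprotein 0.47 and B-cell genes 0.38. Classical complement genes made largely by hepatocytes had 0.34, Kupffer cell niche ligands 0.28, neutrophil genes 0.26, erythroid and megakaryocyte genes 0.25 and lipid-associated macrophage genes 0.22. Sinusoidal endothelium (0.18) and stellate cells (0.01) stood near 0, and hepatocyte genes had -0.40. Some lists share genes, so their values are not separate. Cd163 and Slc40a1 are in both the other Kupffer cell and the iron and heme lists. Mertk and Msr1 are in both the general macrophage list and the list for uptake of dying cells. Without the 2 livers farthest from the median in the mean of the 10 genes, r was 0.88 for the other Kupffer cell genes and 0.96 for the general macrophage genes. It was then 0.59 for T and NK cells, 0.48 for iron and heme recycling, 0.41 for dividing cells and 0.30 for monocytes. Several weak values did not hold without those livers, with niche ligands at 0.12, lipid-associated macrophages at 0.10, neutrophils at -0.0091, erythroid and megakaryocyte genes at -0.23 and hepatocytes at -0.13. Compound mutant replicate 4 had the lowest summed level of the 16 livers for the other Kupffer, general macrophage, T and NK and dividing cell lists. Its summed level ranked 4th from the lowest for sinusoidal endothelium and for stellate cells, and 9th for hepatocytes. The part of these lists in the level of the 10 genes was not tested.

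**Figure D5:**
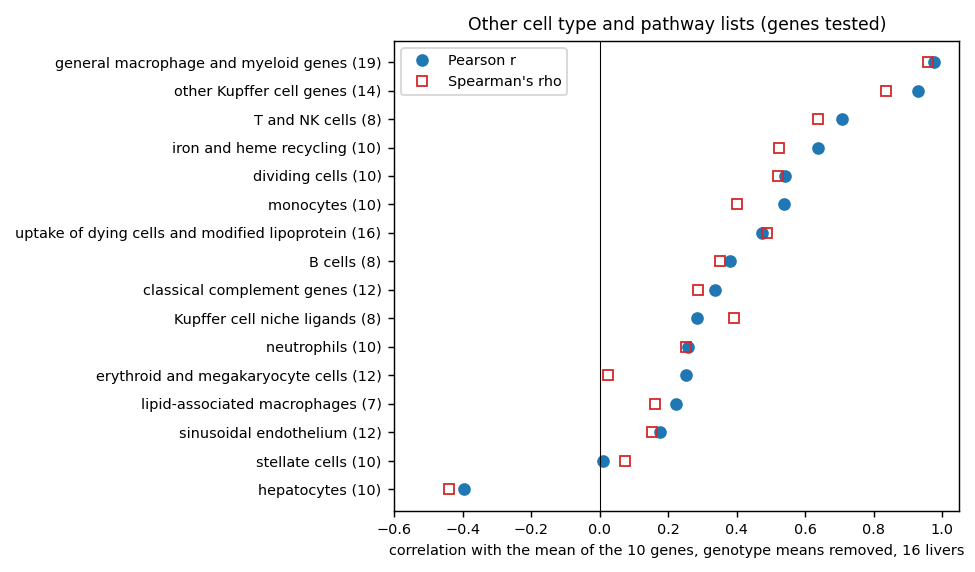
Pearson's r (filled points) and Spearman's rho (open squares) between each list and the mean of the 10 genes over 16 livers after subtraction of genotype means, with the number of genes tested in parentheses. The lists of other Kupffer cell genes and of general macrophage genes lie above 0.8, and hepatocyte genes lie below 0.

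Some genes of these lists passed an adjusted p of 0.05, in 16 results in all. Beside them stand shares over all genes of 0.558% for the first comparison, 0.798% for the second, 0.0887% for the third and 2.07% for the fourth. Of the 16 results, 9 no longer passed in a fit without compound mutant replicate 1, and 13 no longer passed without some 1 library. The 3 that passed in each of the 16 fits were Cd74 in the second comparison and Chil3 and Ftl1 in the fourth. Of the 14 other Kupffer cell genes, 1 fell in compound mutant livers against both Keap1 mutant and Trsp knockout livers. It was Hpgd, the enzyme that inactivates prostaglandins, with log2 fold changes of -0.88 (limma adjusted p = 0.020) and -0.79 (0.021). Its lowest liver was compound mutant replicate 1, and without that library the values were -0.77 (limma adjusted p = 0.071) and -0.69 (0.078). With genotype means removed, Hpgd did not follow the set from mouse to mouse (r = 0.012), whereas its list as a whole had r = 0.93. Which cells the Hpgd differences came from was not tested. Of the 19 general macrophage genes, 1 passed in the comparisons with Keap1 mutant livers. Cd74, the invariant chain of MHC class II, rose by 1.51 in Keap1 mutant against control livers (limma adjusted p = 0.037) and was lower, by a log2 fold change of -1.58, in compound mutant than in Keap1 mutant livers (0.0078), and the latter was called. Without compound mutant replicate 1 the latter was -1.50 (limma adjusted p = 0.031), which does not meet the limit of 0.01, and the former no longer passed when any 1 Keap1 mutant liver was left out. Over the 19 genes the median log2 fold change was 0.28 in Keap1 mutant against control livers, with 15 higher and 4 lower. The 8 B-cell genes had a median of 1.21 there, all 8 higher and 6 below an unadjusted p of 0.05 with limma. Of all genes, 51.0% were lower there and 9.07% were below that p. In compound mutant against Keap1 mutant livers the medians were -0.37 (16 of 19 lower) and -0.38 (8 of 8 lower). Of all genes, 50.7% were lower in that comparison. Which cells the Cd74 differences came from was not tested. Summed normalized counts of the 19 genes ranged from 6715 to 11341 in control and 7270 to 10927 in Trsp knockout livers. They ranged from 9576 to 15572 in Keap1 mutant and 6066 to 11539 in compound mutant livers.

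Among 10 monocyte genes, all 10 were higher in mean in compound mutant than in Trsp knockout livers, the median difference being 0.91 on the log2 scale. Chil3, a chitinase-like protein, rose by 2.53 (limma adjusted p = 0.0068) and was called, and Itgam, the CD11b integrin, rose by 1.21 (0.021). All 10 neutrophil genes were likewise higher in mean, with a median difference of 1.998 on the log2 scale and 8 below an unadjusted p of 0.05, against 17.6% of all genes. Of these 10, S100a8, a calcium-binding protein of granulocytes and monocytes, rose by 2.05 (limma adjusted p = 0.034), and 1 of 7 lipid-associated macrophage genes, the tetraspanin Cd63, rose by 1.25 (0.038). Cd63 also rose by 1.61 in compound mutant against Keap1 mutant livers (limma adjusted p = 0.017). With compound mutant replicate 1 left out, Chil3 had 2.59 (limma adjusted p = 0.022), Itgam 1.09 (0.083), S100a8 2.05 (0.089) and Cd63 1.22 (0.106) against Trsp knockout livers. Cd63 then had 1.57 against Keap1 mutant livers (limma adjusted p = 0.056). Over all 7 lipid-associated macrophage genes and all libraries, the median against Trsp knockout livers was 0.23, with 5 higher and 2 lower. Against Keap1 mutant livers that median was 0.64, with 6 higher and 1 lower. With all libraries, 7 of 8 B-cell genes were also higher in compound mutant than in Trsp knockout livers, with a median of 0.84. Of these 8, 6 were below an unadjusted p of 0.05 with limma. Erythroid and megakaryocyte genes had 10 of 12 higher, with a median of 0.57. Lower in mean were 7 of 8 T and NK cell genes and all 10 dividing cell genes, beside 49.3% of all genes. In Trsp knockout against control livers, all 10 monocyte and 9 of 10 neutrophil genes were lower in mean, beside 52.3% of all genes. Their medians were -0.42 and -0.43. In Keap1 mutant against control livers the medians were 0.28 (8 of 10 higher) and 0.89 (9 of 10 higher). In compound mutant against Keap1 mutant livers they were 0.26 (6 of 10 higher) and 0.28 (9 of 10 higher). Of all genes, 51.0% and 50.7% were lower in these 2 comparisons. Genes of a list can vary together, so their directions are not separate observations. Whether the fold changes of these lists differ from those of the 10 genes was not tested.

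Among 10 iron and heme recycling genes, ferritin chains rose with the knockout where KEAP1 was intact. None of the 10 passed an adjusted p of 0.05 for the knockout in Keap1 mutants, against 0.798% of all genes. Ftl1 rose by 0.88 (limma adjusted p = 0.022) and Fth1 by 0.56 (0.025) in Trsp knockout against control livers. In compound mutant against Trsp knockout livers 3 of the 10 fell, with log2 fold changes of -1.05 for Ftl1 (limma adjusted p = 0.0032, called), -0.56 for Fth1 (0.013) and -0.92 for biliverdin reductase Blvrb (0.022), against 2.07% of all genes passing in this comparison. In the fit without compound mutant replicate 1, the lowest liver for Blvrb, these were -1.001 (limma adjusted p = 0.0104), -0.54 (0.035) and -0.74 (0.067). With all libraries, 7 of the 10 genes were lower and 3 higher in this comparison, beside 49.3% of all genes lower. Below an unadjusted p of 0.05 with limma were 5 lower and 2 higher genes, against 17.6% of all genes. Of 12 classical complement genes outside the C1q chains, 2 fell in compound mutant against Keap1 mutant livers, where 0.798% of all genes passed. They were Hc, complement C5, with -0.95 (limma adjusted p = 0.018), and C1s1, the protease that C1q carries, with -0.67 (0.042). Compound mutant replicate 1 was the lowest liver for Hc, and without it the values were -0.84 (limma adjusted p = 0.054) and -0.57 (0.112). No gene of the lists for uptake of dying cells, sinusoidal endothelium, stellate cells, T and NK cells, B cells, erythroid and megakaryocyte cells, dividing cells or hepatocytes passed in any comparison. Of 8 Kupffer cell niche ligands none passed either. Csf1, the ligand of CSF1R, had a log2 fold change of -0.70 in Trsp knockout against control livers (limma adjusted p = 0.242) and 0.74 in compound mutant against Trsp knockout livers (0.113).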

How the data were processed

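Per the labels, total RNA from livers of male mice was depleted of ribosomal RNA and made into directional libraries. Per the submitters' processing notes reads were quantified with Salmon, against GENCODE transcripts in the study's methods, and processed on iDEP. The deposited log2 values hold the authors' normalization: reads divided by a size factor per library, plus 4, before log2. Reversing it gave whole reads (within 0.1 read) for 100% of low values. Of 18578 rows, 369 without a gene identifier were left out.

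Genotypes were taken from the titles. The 16 libraries entered one limma fit (3.58.1, R 4.3.3, trend) with a mean per genotype, and p-values were adjusted by Benjamini-Hochberg over 15781 genes. The fit was tested on simulated data with larger fold changes than those of the 10 genes, so that test gives no measure of power for them. All 10 genes are described, from other lists those with adjusted p under 0.05 or at most the 2 with the smallest p, and the 8 genes most alike. Genes outside the set and the lists are not named by their fold changes. The genes and lists were chosen with earlier results of these data known. Nothing beyond the replicate numbers says how the mice were bred or handled, so p-values measure the spread between these mice. Alternatives were quantile normalization, library totals, pseudocounts of 0.5 and 1, no filter, a normalized count of 50, limma voom, no trend, the compared groups alone, a replicate block and each library left out. Leaving out libraries for genes of the other lists was added after seeing the data. Positions and transcript lengths came from GENCODE M21 (GRCm38) by Ensembl identifier. Python 3.11.15 with pandas 2.3.3 made the tables, and matplotlib 3.10.9 drew the plots.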

Additional observations from a re-analysis of the deposited data

How the results depend on the processing

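None of the 10 genes was called in any of the 5 tests under any alternative, and the lowest adjusted p over all of them was 0.186 (Csf1r, compound mutant against Keap1 mutant, without control replicate 3). Leaving out 1 library in turn moved the median log2 fold change of the 10 between -0.33 and -0.01 for the knockout with KEAP1 intact, -0.72 and -0.25 for the knockout in Keap1 mutants, 0.08 and 0.53 for the substitutions alone, -0.20 and 0.17 for the substitutions in knockouts (same sign in 13 of 16 fits) and -0.54 and -0.05 for the interaction. Except for the interaction, leaving out a library outside the compared groups could not move the median, and the 13 of 16 includes such fits. Depth was not varied. The replicate numbers did not pair the mice: over 24 same-numbered pairs r was between -0.32 and 0.31, and 2 of 16 libraries correlated best with their own number. The fit with the replicate block called 0 genes. Each genotype holds each replicate number once, so this block cannot move a log2 fold change. Its medians, -0.16, -0.48, 0.32, -0.04 and -0.31, were therefore those of the main fit and are no check.

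Differences that were not called, at most 0.52 in size, changed sign in 22 of 50 gene and comparison results, 62 of 1290 values in all, and 53 of these came from leaving out 1 library. The cause was not tested. Many of the 1290 values could not change. No trend, another filter, the compared groups alone and a replicate block keep each log2 fold change. Leaving out a library outside the compared groups also keeps it, so 1290 is no measure of stability. Under quantile normalization Clec4f became -0.014 for the substitutions alone, 0.013 for the substitutions in knockouts and 0.026 for the interaction. Under quantile normalization and library totals, the substitutions in knockouts gave 0.0037 and 0.074 for Adgre1 and 0.060 and 0.095 for C1qc, and the interaction gave 0.0076 and 0.023 for C1qb. With 1 library left out, the knockout with KEAP1 intact gave Clec4f from -0.24 to 0.17, Vsig4 from -0.13 to 0.25, Cd5l from -0.053 to 0.36, Adgre1 from -0.43 to 0.015, Csf1r from -0.24 to 0.051 and C1qc from -0.30 to 0.035. The knockout in Keap1 mutants gave Clec4f from -0.32 to 0.014. The substitutions alone gave Clec4f from -0.19 to 0.21, Vsig4 from -0.078 to 0.24 and Marco from -0.085 to 0.93. The substitutions in knockouts gave Clec4f from -0.31 to 0.086, Timd4 from -0.11 to 0.37, Cd5l from -0.51 to 0.15, Adgre1 from -0.20 to 0.12, C1qa from -0.11 to 0.21, C1qb from -0.073 to 0.32 and C1qc from -0.20 to 0.18. The interaction gave Clec4f from -0.34 to 0.074, Timd4 from -0.54 to 0.00012, Marco from -0.65 to 0.36, C1qa from -0.41 to 0.0080 and C1qb from -0.32 to 0.14.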
